A study of Mus musculus with 12 samples.

Results

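Mitochondrial complex I (NADH:ubiquinone oxidoreductase) takes electrons from NADH, passes them along a chain of iron-sulfur clusters to ubiquinone, and pumps protons across the inner mitochondrial membrane. It is L-shaped, with a hydrophilic arm in the matrix that carries the redox chemistry and a membrane arm that carries the pumps. The core subunits of the matrix arm and all accessory subunits are encoded in the nucleus and translated by cytosolic ribosomes, while the core subunits of the membrane arm are encoded in mitochondrial DNA. Macrophages that meet bacterial lipopolysaccharide (LPS) are known to shift from mitochondrial respiration toward glycolysis over the following hours.

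The nuclear genes of complex I were taken by symbol: names that start with Ndufa, Ndufb, Ndufc, Ndufs or Ndufv followed by a digit, and Ndufab1, without the assembly factors (Ndufaf). Of the mouse symbols that fit, 36 of the 9621 genes listed in the deposited files are described, and 6 more (Ndufa11b, Ndufa4l2, Ndufab1-ps, Ndufb1-ps, Ndufb4c and Ndufs6b) were not listed. The 36 genes comprised 6 core subunits of the matrix arm, 9 accessory subunits of the matrix arm, 19 accessory subunits of the membrane arm, and Ndufab1, the acyl carrier protein that sits in both arms. The last was Ndufa4, which carries a complex I name but is now assigned to cytochrome c oxidase (complex IV).

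All libraries came from RAW264 cells, a mouse macrophage line. The basal group was untreated, the LPS group received LPS at 100 ng/ml for 30 min, and the LPS + DEX group received LPS with the glucocorticoid dexamethasone (DEX) at 10 µM, also for 30 min. Cells of all 3 groups were exposed to cycloheximide at 100 µg/ml before lysis, which holds cytosolic ribosomes in place on mRNA. Poly(A) mRNA and ribosome-protected fragments (RPF, or footprints) were sequenced from each group in 2 independent biological replicates, giving 12 libraries. The untreated control carries cycloheximide too, and there is no group with DEX alone.

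Values are CPM, the reads of a gene per 1000000 reads of its library, with no scaling by gene length, so levels are compared between libraries and not between genes. Depth was 1475120 to 2529666 reads in the mRNA libraries and 821946 to 1833560 in the RPF libraries, of which both LPS libraries (829415 and 821946 reads) were the shallowest. One library, mRNA of basal replicate 1, stood apart, with Spearman correlations over all genes of 0.781 to 0.831 with the other mRNA libraries, which correlated at 0.894 to 0.98 among themselves. It held the epithelial keratin Krt7 at 1108 CPM, against at most 2.43 CPM in every other library. The 10 macrophage markers checked were all listed and summed to 5263 to 5962 CPM in mRNA and 6679 to 7627 CPM in RPF. Single markers moved in both directions under that sum. In mRNA, Csf1r (0.80) and Cd14 (0.59) rose and Tyrobp (-0.45) fell after LPS (limma adjusted p = 0.0251, 0.0294 and 0.0389). With LPS + DEX against basal, Csf1r (1.14) and Cd14 (0.71) rose and Tyrobp (-0.58) and Lyz2 (-0.42) fell (adjusted p = 0.00701 to 0.0355). With libraries scaled by the median of ratios, 0 rose and 2 fell (Tyrobp and Lyz2) after LPS, and 1 rose (Csf1r) and 4 fell after LPS + DEX. Of the other marker lists, 1 of 6 epithelial (Krt7), 1 of 4 fibroblast (Col3a1) and 0 of 5 lymphocyte markers were listed.

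Every one of the 36 genes was read well enough to be tested in all 9 comparisons, with 24 to 1143 reads per gene and library. Changes are log2 fold changes with standard errors (SE) from limma, fitted across all genes, and a gene passed at a Benjamini-Hochberg adjusted p under 0.05 over all genes tested. Errors of CPM are standard deviations (SD) over 2 libraries. The ratio of footprints to mRNA is called translational efficiency (TE), and its change is the change in RPF minus the change in mRNA. In bulk samples, fewer cells of a kind and less RNA per cell cannot be told apart.

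**Figure D1:**
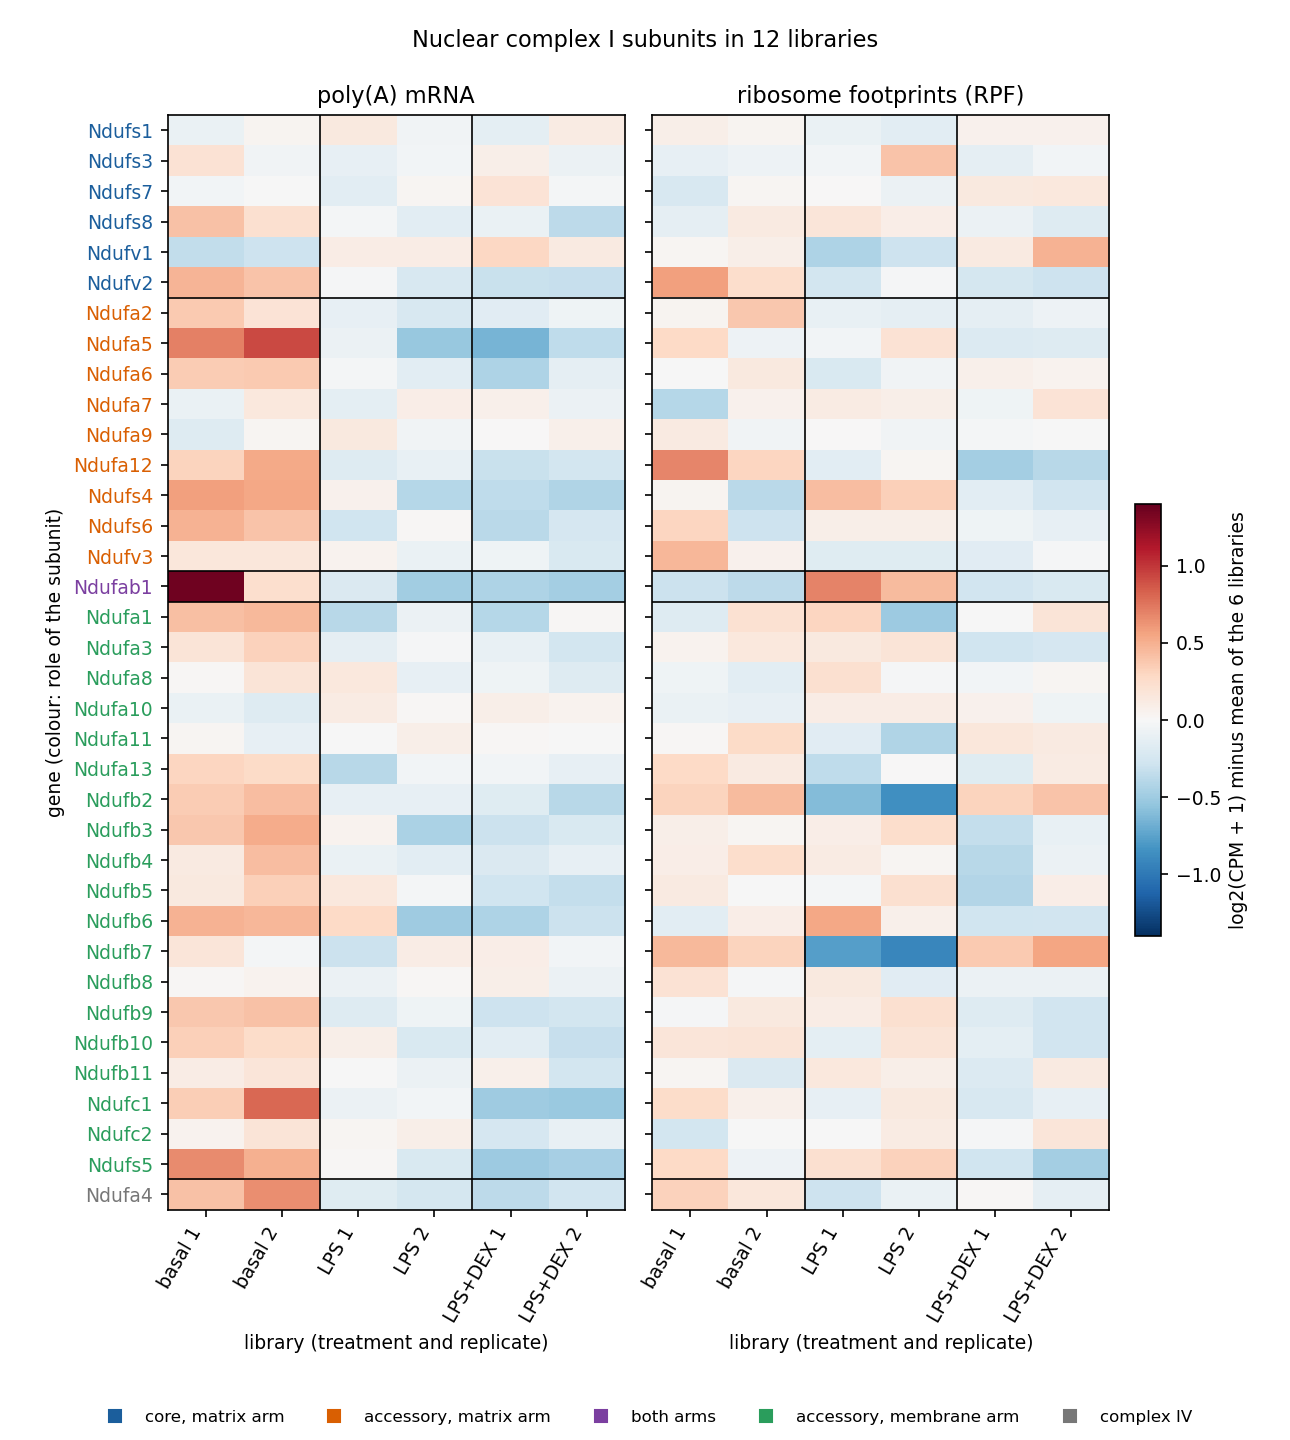
Level of each of the 36 genes (rows, grouped and coloured by role) in each library (columns), as log2(CPM + 1) minus the gene's mean over the 6 libraries of the assay, in mRNA (left) and footprints (right). Most rows are red in both basal mRNA columns, Ndufab1 most of all in basal replicate 1, while in footprints Ndufb7 and Ndufb2 are blue and Ndufab1 red in both LPS columns.

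In mRNA, 6 of the 36 complex I genes fell after LPS against basal and 17 fell after LPS + DEX against basal, while 0 and 1 rose. Of all genes tested, 1.68% and 4.23% fell and 9.03% and 18.5% rose in these comparisons. Summed over the 36 genes, mRNA was 7321 and 7260 CPM in the basal group, 5897 and 5704 CPM after LPS, and 5620 and 5427 CPM after LPS + DEX. Footprints summed to 6167 and 5879 CPM in the basal group, 5677 and 5711 CPM after LPS, and 5277 and 5435 CPM after LPS + DEX. Both treated groups lay below the basal group in both assays, by a wider margin in mRNA than in footprints (the sums were not tested).

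In mRNA after LPS, 6 of the 36 genes fell (Ndufa5, Ndufa4, Ndufs5, Ndufa12, Ndufv2 and Ndufb9) and 0 rose. The background above was counted over 9277 genes. The median change of the 36 genes was -0.41, beside 0.26 over all genes, and 31 of the 36 values were negative. With libraries scaled by the median of ratios in place of total reads, changes of this comparison shifted by -0.26 in the median over all genes. On that scale 16 of the 36 genes fell and 0 rose, with a median of -0.67, beside 317 genes lower and 184 higher over all genes.

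All 6 calls held with median-of-ratios scaling, with log2(CPM + 2) and with no filter on low values. With limma-voom on the recovered reads 3 of the 6 held, and with the replicate number as a block 2 held. Without LPS replicate 1 or without LPS replicate 2, none of the 36 genes passed, and only 13 and 6 genes passed in all. Without LPS + DEX replicate 1 or replicate 2, 2 of the 6 (Ndufa5 and Ndufa4) held in each case. Without basal replicate 1, the library that stood apart, 3 of the 6 held (Ndufa5, Ndufa4 and Ndufa12), and 4 of the 36 genes fell. Without basal replicate 2, 4 of the 6 held. Each of the 6 kept its sign in every alternative run.

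LPS + DEX against basal gave 17 genes that fell, from Ndufa5 at -1.32 to Ndufb10 at -0.53, and 1 that rose, Ndufv1 at 0.53. The median of the 36 genes was -0.48 beside 0.28 over all genes. With median-of-ratios scaling, which shifted this comparison by -0.28 over all genes, 24 fell, 0 rose and the median was -0.78. Over all genes on that scale, 826 were lower and 720 higher. Ndufv1 then stood at 0.24 and no longer passed. Without LPS + DEX replicate 1, none of the 36 passed (1 gene passed in all). Without LPS + DEX replicate 2, 7 fell, and without basal replicate 1, 15 fell.

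Adding DEX to LPS moved no gene past the test in mRNA. With limma, 0 of 36 members passed, the background was 0% of 9277 genes, and 183 genes had an unadjusted p under 0.05, among them Ndufc1 (-0.45), Ndufs5 (-0.39) and Ndufb5 (-0.37). The limma-voom test on recovered reads also called 0. The median over the 36 genes was -0.11. The LPS and LPS + DEX comparisons with basal share the basal libraries, so they are not independent of each other.

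**Figure D2:**
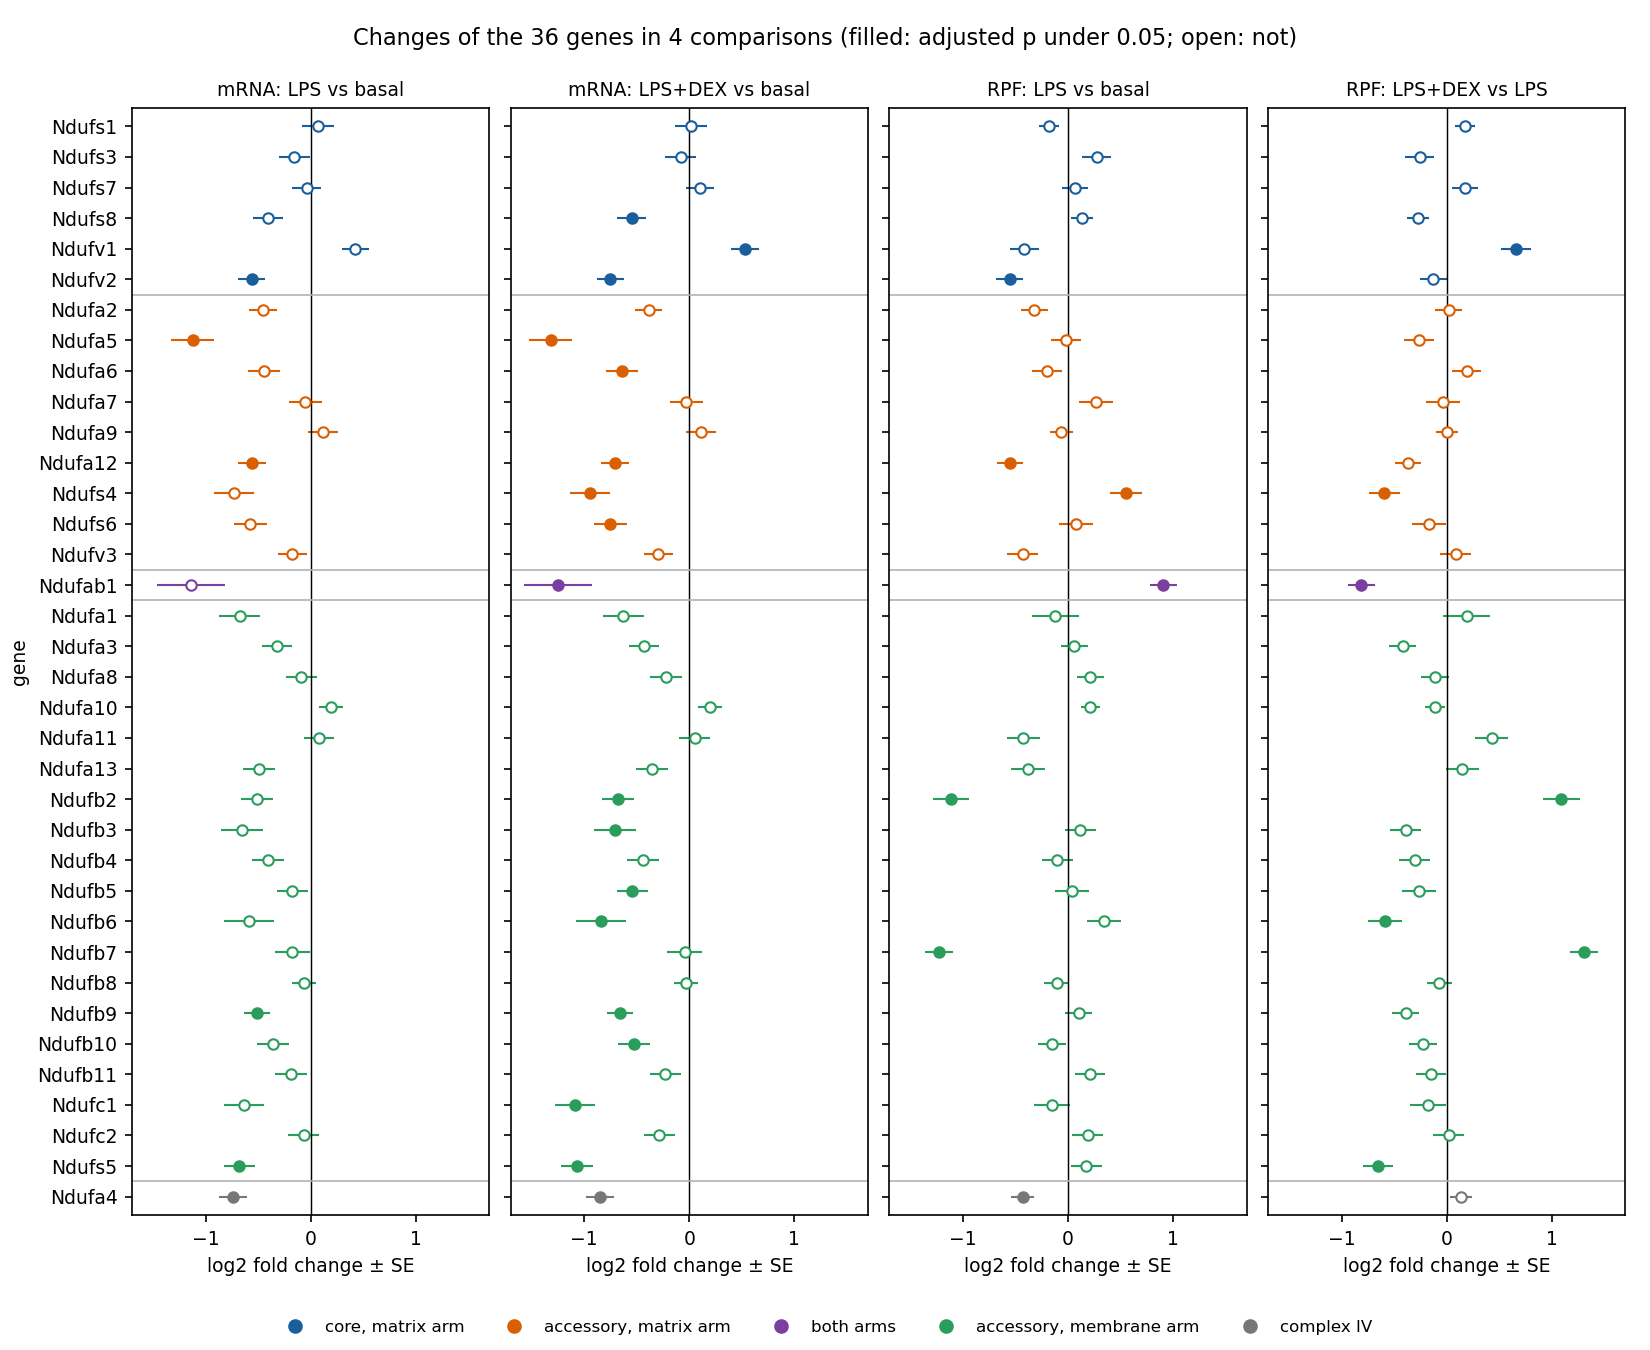
Log2 fold change (points, x axis) with its SE (bars) for each gene (y axis, grouped by role) in 4 comparisons, filled where the adjusted p was under 0.05. The 2 mRNA panels lean to the left with 6 and 18 filled points, while the RPF panels show single genes far from 0 on either side, with Ndufb7 at -1.23 after LPS and 1.31 with DEX added.

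By role, the mRNA median after LPS was -0.10 for the 6 core subunits, -0.45 for the 9 accessory subunits of the matrix arm and -0.36 for the 19 of the membrane arm. After LPS + DEX these medians were -0.03, -0.64 and -0.44 against basal. The difference between roles was not tested. With median-of-ratios scaling the core median was -0.36 and -0.32 in these comparisons and the other medians were lower as well.

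Among the core subunits, the flavoprotein pair Ndufv1 and Ndufv2, at the NADH-oxidising end of the matrix arm, had mRNA changes of opposite sign. The rise of Ndufv1 passed only after LPS + DEX, and not with median-of-ratios scaling. Ndufv2 mRNA was 333 and 317 CPM in the basal group, 236 and 205 CPM after LPS, and 193 and 191 CPM after LPS + DEX. It was highest in both basal libraries, and no group overlapped another. Its change was -0.56 ± 0.13 (SE, limma adjusted p = 0.0366) after LPS and -0.75 ± 0.13 (adjusted p = 0.0102) after LPS + DEX.

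Ndufv1 mRNA was 124 and 129 CPM in the basal group, 171 and 170 CPM after LPS, and 194 and 173 CPM after LPS + DEX. Both basal libraries lay lowest. The change after LPS was 0.43 ± 0.13 and did not pass (limma adjusted p = 0.0745). That after LPS + DEX was 0.53 ± 0.13 (adjusted p = 0.0272), beside a median of 0.28 over all genes. The LPS + DEX change was 0.24 to 0.61 over the 11 alternatives. Its call was lost with median-of-ratios scaling, with the replicate block and in most fits that left out a library.

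Of the other core subunits, which carry electrons onward through iron-sulfur clusters or line the ubiquinone site, Ndufs8 fell in mRNA after LPS + DEX (-0.55 ± 0.14, limma adjusted p = 0.03). Its basal values were 546 and 480 CPM and its LPS + DEX values 385 and 317 CPM. The change was -0.84 to -0.41 over the 11 alternatives. Its call was lost in most fits that left out a library, that without basal replicate 1 among them. Ndufs1 (0.02), Ndufs3 (-0.08) and Ndufs7 (0.10) did not pass in that comparison.

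In the accessory matrix arm, Ndufa5 had the largest mRNA change that passed. It was at 144 and 168 CPM in the basal group, 83.3 and 60.6 CPM after LPS, and 55.7 and 68.7 CPM after LPS + DEX. Basal libraries were higher than all treated ones, and the 2 treated groups overlapped. The change was -1.12 ± 0.21 after LPS (limma adjusted p = 0.0253) and -1.32 ± 0.21 after LPS + DEX (adjusted p = 0.00916).

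Ndufs4 is an accessory subunit that stabilises the NADH-oxidising end of the arm, and its loss in mice causes a Leigh-like brain disease. Its mRNA was 110 and 108 CPM in the basal group, 76.8 and 55.8 CPM after LPS, and 57.7 and 54.9 CPM after LPS + DEX. It fell in LPS + DEX against basal (-0.94 ± 0.19, limma adjusted p = 0.0147), while the LPS value of -0.73 did not pass.

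Ndufa12 takes the place of the assembly factor Ndufaf2 late in the building of the arm. Its mRNA was 272 and 317 CPM in the basal group, 194 and 204 CPM after LPS, and 176 and 183 CPM after LPS + DEX, with no overlap between groups. It fell by 0.56 on the log2 scale after LPS and by 0.71 after LPS + DEX (limma adjusted p = 0.0391 and 0.0122). Ndufaf2 mRNA fell too in LPS + DEX, by 1.29 ± 0.30 (adjusted p = 0.022).

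In the membrane arm, Ndufs5, a small subunit on the intermembrane-space face, was at 198 and 177 CPM in basal mRNA, 126 and 108 CPM after LPS, and 87.4 and 90 CPM after LPS + DEX. The groups stepped down without overlap. Its changes were -0.68 ± 0.15 and -1.07 ± 0.15 against basal (limma adjusted p = 0.0339 and 0.00785).

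Ndufc1 mRNA was 88.1 and 122 CPM in the basal group, 65.6 and 67.2 CPM after LPS, and 48.6 and 47.9 CPM after LPS + DEX. It fell by 1.09 ± 0.19 in LPS + DEX against basal (limma adjusted p = 0.0111). Ndufb6 mRNA was 163 and 161 CPM in the basal group, 141 and 82.2 CPM after LPS, and 85.8 and 93.9 CPM after LPS + DEX. Its LPS replicates were far apart, and it fell in LPS + DEX against basal (-0.84 ± 0.24, adjusted p = 0.0427). Both are small accessory subunits anchored in the membrane.

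Ndufa4 mRNA was 359 and 422 CPM in the basal group, 239 and 226 CPM after LPS, and 209 and 223 CPM after LPS + DEX, again highest in both basal libraries. It fell in both comparisons with basal (-0.74 ± 0.13 and -0.85 ± 0.13, limma adjusted p = 0.0241 and 0.009). Without Ndufa4, 5 of 35 genes fell after LPS and 16 of 35 after LPS + DEX.

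Ndufab1 serves complex I and also mitochondrial fatty acid synthesis and iron-sulfur cluster building. Its mRNA was 367 CPM in basal replicate 1 and 168 CPM in basal replicate 2, then 124 and 102 CPM after LPS and 106 and 102 CPM after LPS + DEX. The high value belongs to the library that stood apart, and both basal values still exceed the other 4. LPS + DEX against basal gave -1.25 ± 0.32 (limma adjusted p = 0.0314), which became -0.69 without basal replicate 1 (adjusted p = 0.0358) and -1.81 without basal replicate 2. The call was lost on leaving out any 1 of the 4 treated mRNA libraries (adjusted p = 0.0617 to 0.14). The LPS change of -1.14 did not pass (adjusted p = 0.061).

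Since many subunit mRNAs moved the same way, the sequence before their transcription starts was examined in RefSeq windows of 300 bases (250 before to 50 after a start, build GRCm38.p6). Windows were found for 33 of the 36 genes. Motifs were searched on both strands. GCGCANGCG, the core of the site bound by nuclear respiratory factor 1, was in windows of 8 of the 33 genes (24.2%) and in 6.25% of all 32851 windows. AAGATGGC, a site of YY1, was in 7 of the 33 genes (21.2%) and in 2.75% of all windows. CCGGAAG, a core bound by ETS factors, was in 4 of the 33 genes (12.1%) and 8.86% of all windows. Member shares count genes, 2 of which had 2 windows, while the background counts windows and was not limited to the listed genes. Member windows were richer in G and C than all windows over the 150 bases before the start (median 60% against 54%), and no test was made.

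The 150 bases before the start are shown for the 2 genes with the nuclear respiratory factor motif among the 6 that fell after LPS, for Ndufb7 and Ndufb2, whose footprints changed most, and for Ndufab1. Ndufa5 (the more upstream of 2 listed starts) lies at chr6:24527691-24527840, minus strand, and Ndufs5 at chr4:123718187-123718336, minus strand. Ndufb7 lies at chr8:83566608-83566757, plus strand, Ndufb2 at chr6:39592415-39592564, plus strand, and Ndufab1 at chr7:122101849-122101998, minus strand. Capitals mark GCGCANGCG in Ndufa5 and Ndufs5 and CCGGAAG in Ndufb7, and each sequence reads 5′ to 3′ toward the start.
Ndufa5: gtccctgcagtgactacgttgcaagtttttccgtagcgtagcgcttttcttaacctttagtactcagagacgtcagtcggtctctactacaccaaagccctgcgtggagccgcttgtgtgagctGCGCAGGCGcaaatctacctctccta
Ndufs5: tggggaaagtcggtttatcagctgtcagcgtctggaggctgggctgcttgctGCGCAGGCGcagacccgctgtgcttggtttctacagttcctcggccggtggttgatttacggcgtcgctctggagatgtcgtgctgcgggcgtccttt
Ndufb7: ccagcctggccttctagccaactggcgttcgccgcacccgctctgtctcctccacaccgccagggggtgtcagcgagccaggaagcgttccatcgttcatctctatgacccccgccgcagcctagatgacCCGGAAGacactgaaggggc
Ndufb2: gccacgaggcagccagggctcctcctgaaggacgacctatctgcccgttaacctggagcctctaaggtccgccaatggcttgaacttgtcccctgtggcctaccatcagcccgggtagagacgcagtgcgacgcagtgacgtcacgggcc
Ndufab1: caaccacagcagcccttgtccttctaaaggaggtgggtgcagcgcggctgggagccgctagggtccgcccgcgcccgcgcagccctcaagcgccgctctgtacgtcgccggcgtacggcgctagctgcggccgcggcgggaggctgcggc

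In Ndufa5 the motif lies 26 to 18 bases before the start, in Ndufs5 98 to 90 bases before it, and the ETS core of Ndufb7 20 to 14 bases before it. Of the 8 genes with the nuclear respiratory factor motif, 5 fell in mRNA with LPS + DEX against basal (Ndufa5, Ndufa6, Ndufb10, Ndufs5 and Ndufs6) and 3 did not pass (Ndufa11, Ndufa8 and Ndufb4). Over all 33 genes with a window, 16 fell. Of the 7 genes with the YY1 site, which lay after the start in each, 3 fell (Ndufc1, Ndufs4 and Ndufs6). A start of C followed by 4 pyrimidines, as in mRNAs whose translation follows mTOR, was found in 1 of the 33 genes (Ndufb11) and in 2.51% of all windows.

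In footprints the complex I genes did not move as a block after LPS. Of the 36, 2 rose and 5 fell, beside 3.3% and 4.32% of the 8847 genes tested, and their median was -0.04 beside -0.07 over all genes. Ndufab1 and Ndufs4 rose. Ndufb7, Ndufb2, Ndufa12, Ndufv2 and Ndufa4 fell. On leaving out LPS replicate 1 or either LPS + DEX library, 3 of these 7 passed in each case. When DEX was added to LPS, 3 rose (Ndufb7, Ndufb2 and Ndufv1) and 4 fell (Ndufab1, Ndufs5, Ndufs4 and Ndufb6), beside 3.14% and 3.55% of all genes.

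Ndufb7, an accessory subunit of the membrane arm on its intermembrane-space face, had the largest footprint changes. Its RPF values were 162 and 147 CPM in the basal group, 68.7 and 62 CPM after LPS, and 153 and 174 CPM after LPS + DEX. Both LPS libraries (57 and 51 reads) lay far below the other 4, among which basal and LPS + DEX overlapped. LPS against basal was -1.23 ± 0.13 (limma adjusted p = 7.89e-05) and LPS + DEX against LPS was 1.31 ± 0.13 (adjusted p = 4.69e-05). Its mRNA was 229 and 200, 165 and 219, and 217 and 199 CPM in the same order of groups, which overlapped (LPS against basal -0.17, adjusted p = 0.51).

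Ndufb2, a small membrane-anchored subunit of the same arm, showed a like pattern in footprints. Footprints were at 67.2 and 73.7 CPM in the basal group, 35 and 29.2 CPM after LPS, and 67.1 and 71.5 CPM after LPS + DEX. The LPS libraries held only 29 and 24 reads. LPS against basal was -1.11 ± 0.17 (limma adjusted p = 0.00138), and LPS + DEX against LPS was 1.09 ± 0.17 (adjusted p = 0.00189). Its mRNA was 111 and 118 CPM in the basal group, 79.8 and 80 CPM after LPS, and 76.7 and 66 CPM after LPS + DEX. The mRNA change after LPS was -0.51 and did not pass (adjusted p = 0.0692), and with LPS + DEX against basal it fell by 0.68 ± 0.15 (adjusted p = 0.0209).

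Ndufab1 footprints went the other way, at 111 and 105 CPM in the basal group, 222 and 186 CPM after LPS, and 113 and 118 CPM after LPS + DEX. The LPS libraries were above all others. LPS raised them by 0.91 ± 0.13 (limma adjusted p = 0.000586), and they were lower by -0.81 ± 0.13 when DEX was added (adjusted p = 0.0017). The footprint calls of Ndufb7 and Ndufab1 in both of these comparisons, and of Ndufb2 after LPS, held in each of the 11 alternatives run. The Ndufb2 call for DEX was lost without LPS + DEX replicate 2. The 2 comparisons share the LPS libraries and are not independent of each other. Without a filter on low values, the calls of Ndufa12, Ndufv2, Ndufa4 and Ndufs4 after LPS were lost. Those of Ndufs5, Ndufs4, Ndufb6 and Ndufv1 with DEX added to LPS were lost as well. Dropping the filter adds genes both to the fit and to the correction, and the cause of the losses was not tested.

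Ndufs4 footprints were 114 and 84.8 CPM in the basal group, 150 and 140 CPM after LPS, and 99.8 and 91.6 CPM after LPS + DEX, with the LPS libraries highest. They rose by 0.55 ± 0.15 after LPS (limma adjusted p = 0.0397) and were lower by -0.59 ± 0.15 with DEX (adjusted p = 0.0313). The first call was lost on leaving out any 1 RPF library other than basal replicate 1, and the second on leaving out any 1 LPS or LPS + DEX library.

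Ndufv1 footprints were 141 and 147 CPM in the basal group, 102 and 113 CPM after LPS, and 151 and 194 CPM after LPS + DEX. The LPS libraries were lowest, though the fall of -0.41 did not pass (limma adjusted p = 0.0885). With DEX they rose by 0.66 ± 0.14 (adjusted p = 0.0106), a call lost without LPS replicate 1 (adjusted p = 0.0759) or LPS + DEX replicate 2 (adjusted p = 0.248).

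Ndufs5 footprints were 141 and 110 CPM in the basal group, 136 and 146 CPM after LPS, and 95.6 and 83.4 CPM after LPS + DEX, and those of Ndufb6 were 100 and 118, 163 and 117, and 91.3 and 92.2 CPM. Only the LPS + DEX libraries were apart in each, being lowest. DEX against LPS was -0.65 ± 0.15 for Ndufs5 (limma adjusted p = 0.0155) and -0.58 ± 0.16 for Ndufb6 (adjusted p = 0.0446). Both calls were lost on leaving out LPS replicate 1 or either LPS + DEX library, and that of Ndufs5 also without LPS replicate 2.

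**Figure D3:**
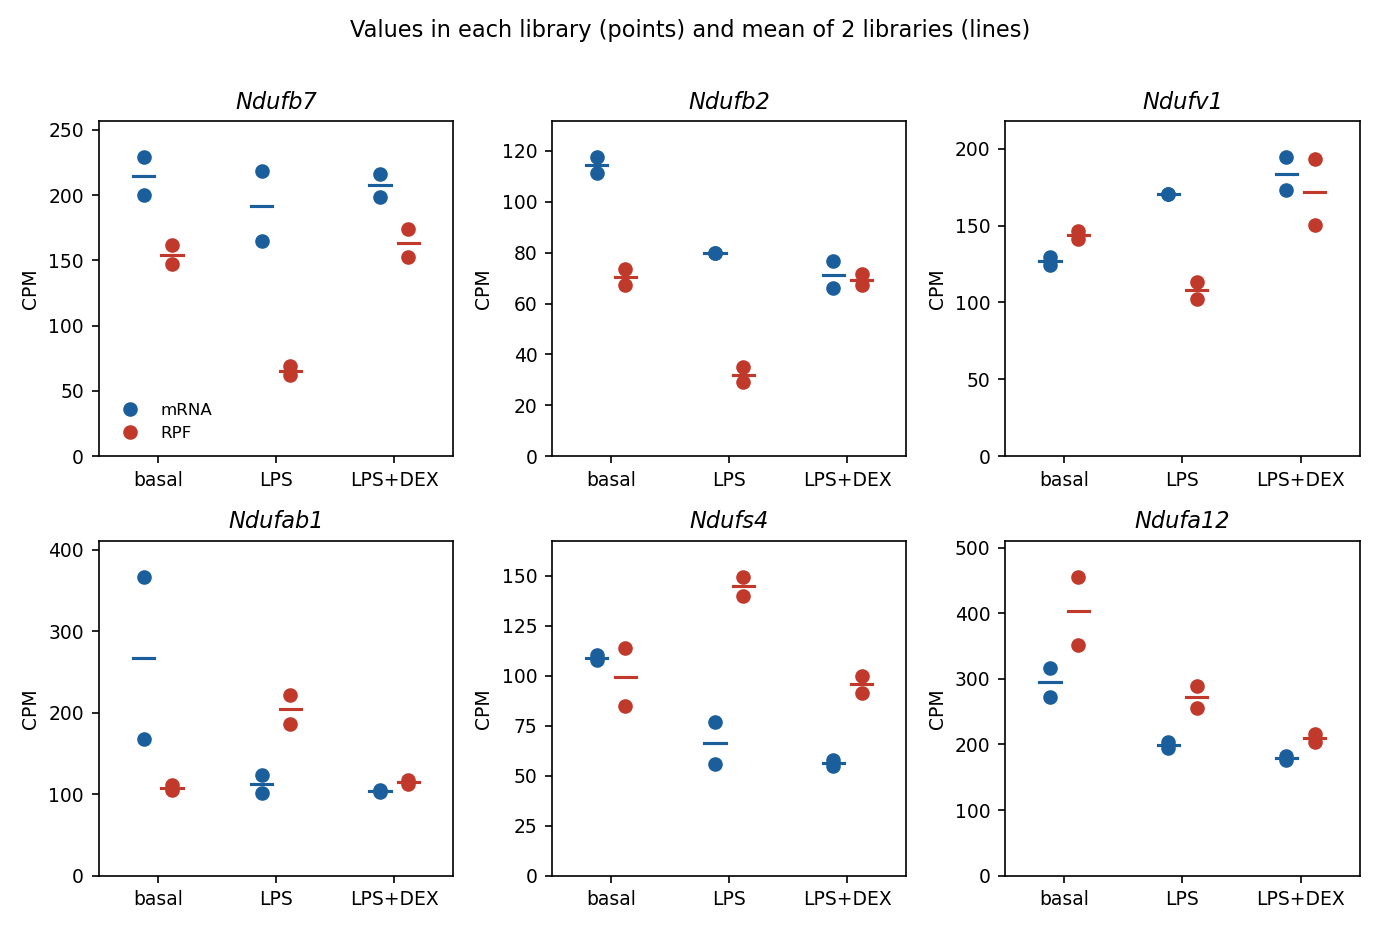
CPM (y axis) of 6 genes in each library (points) with the mean of the 2 libraries (lines), for mRNA (blue) and RPF (red), by treatment. Ndufb7, Ndufb2 and Ndufv1 have their lowest footprints in the LPS group and Ndufab1 and Ndufs4 their highest, while Ndufa12 steps down in both assays.

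Ndufa12 and Ndufv2 were the 2 genes whose footprints fell with LPS + DEX against basal, where 0 rose and the background was 2.86% lower and 1.77% higher. Ndufa12 footprints were 456 and 351 CPM in the basal group, 256 and 290 CPM after LPS, and 204 and 216 CPM after LPS + DEX, with no overlap. The last change was -0.92 ± 0.13 (limma adjusted p = 0.000508) and held in each of the 11 alternatives. Ndufv2 footprints were 353 and 280, 196 and 232, and 198 and 192 CPM in the same order, with both basal libraries highest, and changed by -0.68 ± 0.13 (adjusted p = 0.0062). Without a filter, or without either LPS + DEX library, the Ndufv2 call was lost. After LPS alone they fell by 0.55 ± 0.13 each (adjusted p = 0.0159 and 0.0177), and both of these calls were lost without basal replicate 1, LPS replicate 1 or either LPS + DEX library. In both genes mRNA and footprints were lower together.

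Ndufa4 footprints were 402 and 360 CPM in the basal group, 264 and 302 CPM after LPS, and 326 and 296 CPM after LPS + DEX. Basal libraries were highest, and the 2 treated groups overlapped. The change after LPS was -0.43 ± 0.11 (limma adjusted p = 0.0271), and this call was lost with median-of-ratios scaling and in 4 of 6 fits that left out a library. Ndufa5 footprints, at 173 and 136, 139 and 164, and 125 and 126 CPM, overlapped between basal and LPS (-0.02), in contrast to its mRNA. Ndufc1 footprints, at 70.2 and 61.8, 54.3 and 64.5, and 50.2 and 54 CPM, passed in no comparison.

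Other values moved with these footprint patterns. The LPS libraries were the 2 shallowest. Footprints of Col3a1, the only fibroblast marker listed, were 142 and 115 CPM in the basal group, 65.1 and 60.8 CPM after LPS, and 134 and 128 CPM after LPS + DEX, a course like that of Ndufb7, while its mRNA was 3.39 and 16.2, 46.7 and 51.4, and 75.1 and 61.6 CPM. Summed footprints of the 10 macrophage markers were 6947 and 7627, 7351 and 7217, and 6679 and 6862 CPM. Of these markers Csf1r footprints fell after LPS (-0.32, limma adjusted p = 0.0307; not called with median-of-ratios scaling). With DEX added to LPS, Cd14 (0.55) and Csf1r (0.36) rose and Fcer1g (-0.57) and Lyz2 (-0.43) fell (adjusted p = 0.00276 to 0.0172). The part of depth, or of RNA from other cells, in the results for complex I genes was not tested.

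TE compares the changes in both assays directly. It uses the same libraries as those changes and is not independent of them. After LPS, TE rose for 5 of the 36 genes (Ndufab1, Ndufs4, Ndufa5, Ndufs5 and Ndufb9) and fell for 2 (Ndufb7 and Ndufv1), beside 3.08% and 13.6% of the 9412 genes tested. Of the 5, Ndufab1 and Ndufs4 also rose in footprints. Footprints of Ndufa5 (-0.02), Ndufs5 (0.17) and Ndufb9 (0.10) did not pass, while their mRNA fell (-1.12, -0.68 and -0.51). The median TE change over the 36 was 0.28, against -0.34 over all genes. With median-of-ratios scaling, which raised TE changes by a median of 0.29, the split was 11 higher and 1 lower (Ndufb7). Over all genes on that scale, 558 were higher and 502 lower. The median was then 0.57 over the 36 and -0.06 over all genes.

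Ndufab1 had the largest TE rise, 2.05 ± 0.37 (limma adjusted p = 0.00392), which was 1.48 without basal mRNA replicate 1 and 2.61 without basal mRNA replicate 2. Ndufs4 rose by 1.28 ± 0.26 (adjusted p = 0.00646), and Ndufb7 fell by 1.06 ± 0.22 (adjusted p = 0.0074). The calls of these 3 genes held in all 17 alternatives. For Ndufa5 the change was 1.10 ± 0.27, for Ndufs5 0.85 ± 0.22 and for Ndufb9, a subunit that binds the acyl carrier protein, 0.62 ± 0.17, and these calls were lost in 3, 4 and 6 of the 12 fits that left out a library. Ndufv1 (-0.84 ± 0.20) lost its call with median-of-ratios scaling. The TE change of Ndufb2 after LPS (-0.60 ± 0.23) did not pass (limma adjusted p = 0.0831). Of the 7 calls, 4 held without LPS replicate 2 of the mRNA libraries, and 4 without basal replicate 2 of the RPF libraries.

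With LPS + DEX against basal, TE rose for 4 genes (Ndufab1 1.34, Ndufa5 1.03, Ndufs4 0.90 and Ndufa4 0.55) and fell for 0, beside 2.68% and 12.2% of all genes. In footprints these 4 genes did not pass (0.10, -0.29, -0.04 and -0.29), while all 4 fell in mRNA. The median TE change over the 36 was 0.27, against -0.34 over all genes. With median-of-ratios scaling 12 rose and 0 fell, beside 507 genes higher and 356 lower over all genes. Without basal mRNA replicate 1 the Ndufab1 value was 0.78 (limma adjusted p = 0.0428), and with limma-voom it was 1.32 and not called (adjusted p = 0.065). The Ndufa4 call was lost in 14 of 17 alternatives. Leaving out LPS + DEX replicate 1 of the mRNA libraries, or basal replicate 2 or either LPS + DEX library of the RPF libraries, left 0 calls among the 36, with 546 to 757 genes called in all. Without LPS + DEX replicate 2 of the mRNA libraries, 2 rose.

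Between LPS + DEX and LPS, TE passed for 0 of the 36 genes, beside 0.0531% of all genes (5 of 9412). At an unadjusted limma p under 0.05 there were 3 of the 36, beside 597 of 9412 genes. The 3 were Ndufb2 (1.26 ± 0.23, limma adjusted p = 0.0598), Ndufb7 (1.18 ± 0.22, adjusted p = 0.063) and Ndufv1 (0.56 ± 0.20, adjusted p = 0.608). The limma-voom test called 0. Ndufb2 and Ndufb7 both passed when either basal mRNA library was left out (adjusted p = 0.019 to 0.0242), which leaves these differences as they are and changes the spread.

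**Figure D4:**
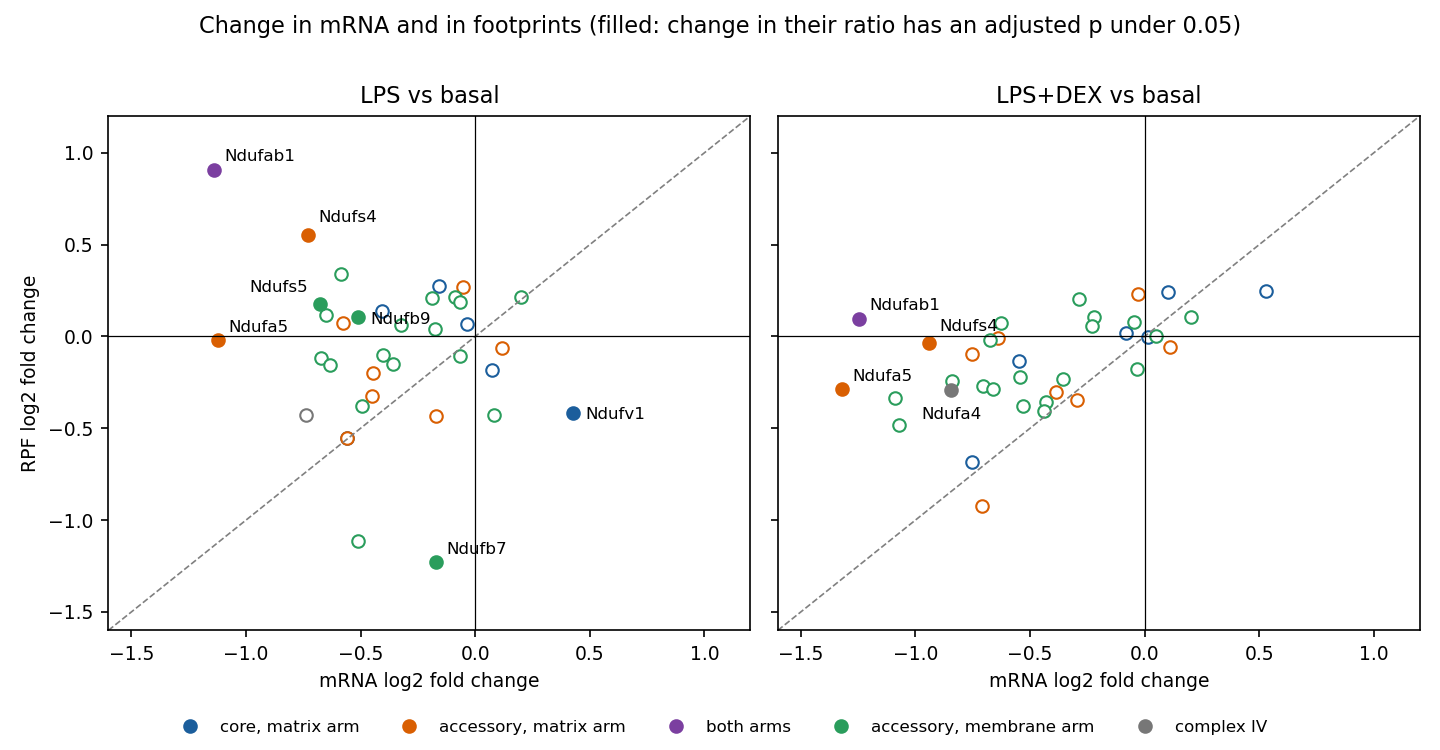
Log2 fold change in mRNA (x axis) against that in footprints (y axis) for the 36 genes, after LPS (left) and LPS + DEX (right) against basal, filled and named where the change in TE passed. The dashed line marks equal change. After LPS, Ndufab1 lies at -1.14 in mRNA and 0.91 in footprints and Ndufb7 at -0.17 and -1.23, and most other genes lie above the line.

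As a description, the log2 ratio of footprints to mRNA in basal cells was lowest for Ndufab1 (-1.19), Ndufb9 (-0.96) and Ndufa6 (-0.90) and highest for Ndufs1 (1.22), Ndufa12 (0.44) and Ndufa9 (0.34). The Ndufab1 value rests on mRNA of basal replicate 1, the library that stood apart. Without that library it was -0.63, and the lowest were Ndufb9 (-0.98), Ndufa6 (-0.90) and Ndufc1 (-0.88), an alternative chosen after seeing the data. The median was -0.40 in basal cells, -0.13 after LPS and -0.06 after LPS + DEX, and over all genes 0.21, -0.06 and -0.08. Without basal replicate 1 of the mRNA libraries, the basal medians were -0.36 and 0.17. Ndufs1, the largest iron-sulfur protein of the arm, was at 133 and 146 CPM in basal mRNA and 330 and 321 CPM in basal footprints. The 2 assays were prepared as separate libraries, so the ratio has no absolute meaning.

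The rest of the pathway is given for comparison from gene lists of each complex. Of 35 listed nuclear genes of complexes III to V, 10 fell and 1 rose in mRNA after LPS (median -0.32), and 15 fell and 2 rose after LPS + DEX (median -0.42). With median-of-ratios scaling these counts were 15 and 0, and 23 and 0. The largest falls after LPS + DEX were Uqcrb (-1.28) in complex III, Atp5j (-1.26) in ATP synthase and Cox7b (-0.93) in complex IV. TE rose for 12 and fell for 3 of these 35 after LPS (18 and 0 with median-of-ratios scaling).

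Of 16 listed assembly factors, which build the complex without staying in it, Ndufaf2 fell in mRNA as given above, Ndufaf6 footprints fell with LPS + DEX against basal (-1.15 ± 0.26, limma adjusted p = 0.0178), and TE of Dmac2 fell after LPS (-1.23 ± 0.40, adjusted p = 0.0498). These were the only passes among the 16 in the 9 comparisons, and with median-of-ratios scaling 3 of them fell in mRNA with LPS + DEX and Dmac2 no longer passed. In complex II, the iron-sulfur subunit Sdhb had a footprint course like that of Ndufb7, at 257 and 234 CPM in the basal group, 134 and 135 CPM after LPS, and 296 and 286 CPM after LPS + DEX (LPS -0.86 ± 0.11, DEX against LPS 1.11 ± 0.11, adjusted p = 0.000215 and 2.81e-05). Its TE change with DEX passed (1.17 ± 0.15, adjusted p = 0.0186).

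The 7 mitochondrially encoded core subunits (mt-Nd genes), which form the membrane arm's pumps and are read by mitochondrial ribosomes, all rose in the RPF libraries after LPS (1.10 to 1.94, median 1.44). All 7 fell when DEX was added to LPS (-2.76 to -1.72, median -2.05). Nuclear core subunits had medians of -0.06 and 0.02 in the same comparisons. Summed RPF values of the 7 were 969 and 783 CPM in the basal group, 2210 and 2453 CPM after LPS, and 602 and 525 CPM after LPS + DEX, without overlap. Cycloheximide does not act on mitochondrial ribosomes.

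Among 8 listed regulators of respiratory genes, the coactivators Ppargc1b and Pprc1 rose in mRNA after LPS (1.49 ± 0.27 and 0.82 ± 0.18, limma adjusted p = 0.0252 and 0.0344) and after LPS + DEX (1.61 ± 0.27 and 0.96 ± 0.18, adjusted p = 0.0102 and 0.0127). Ppargc1b mRNA went from 10.8 and 8.12 CPM in basal cells to 24.8 and 32.1 CPM after LPS. After LPS, TE fell by 1.85 on the log2 scale for Ppargc1b and fell by 1.32 for Pprc1. With median-of-ratios scaling 1 of the 8 rose in mRNA after LPS and 2 after LPS + DEX. The other 6 passed in no mRNA comparison.

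Some of the 36 genes share sequence or position with others. The RefSeq gene table holds pseudogenes named after Ndufab1, Ndufa12, Ndufs5, Ndufs6 (Ndufs6b) and Ndufa11 (Ndufa11b). How reads shared with such copies were counted is not stated in the labels, so values of these genes are less certain. In the same table Ndufv2 overlaps Ankrd12, Ndufa1 overlaps Rnf113a1, Ndufa13 overlaps Tssk6, Ndufa2 overlaps Tmco6 and Ndufb11 overlaps Rbm10. Ndufa10, Ndufa9, Ndufs1, Ndufs7 and again Ndufv2 overlap non-coding genes. Whether strand was used in counting is not given either.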

How the data were processed

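Poly(A) mRNA and ribosome footprints of RAW264 cells were sequenced in 3 treatments with 2 replicates each. The deposited values are CPM + 1 per Ensembl gene, read from the values: the lowest is 1, and after subtracting 1 all values (100%) are whole multiples of 1 read within 0.1 read. The sources used here name no aligner, genome build or annotation. Symbols matched 9521 of 9621 gene IDs.

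The members, gene lists and tests were chosen with earlier results of these data known. Of the genes that fit the rule, 1 is not reported here and is in no member count or sum, though it stayed in the fits over all genes. limma 3.58.1 (R 4.3.3, trend) was fitted to log2(CPM + 1) over all genes, 6 libraries per assay or all 12 for TE, with treatment group as the only factor. Tested genes had 10 or more reads, at median depth, in 2 libraries, and 15 or more in total. Alternatives were median-of-ratios scaling, log2(CPM + 2), no filter, limma-voom on recovered reads, the replicate number as a block, and leaving out each library, where the lone library of a group is assumed to vary like the others. The fits were run on simulated counts with known changes, which checks the code only. No simulated library stood apart as mRNA of basal replicate 1 did. Members given in every library are the 12 with the largest passing change, and others are named by role, rank or list. Footprint density per coding length is not analysed here. No molecular identifiers are described, so read numbers cover counting error only.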

Additional observations from a re-analysis of the deposited data

How the results depend on the processing

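Every one of the 51 member calls kept its sign in all alternatives, and 9 were called in all of them. The number of members called in mRNA after LPS was 6, against 16 with median-of-ratios scaling, 3 with limma-voom, 2 with the replicate block and 0 to 6 on leaving out a library. For mRNA of LPS + DEX against basal it was 18, and 0 to 16 on leaving out a library. In RPF, without a filter on low values 3 passed after LPS (main 7), 3 with DEX against LPS (main 7) and 1 with LPS + DEX against basal (main 2), and leaving out a library gave 3 to 7, 2 to 9 and 1 to 3. In TE after LPS (main 7) it was 12 with median-of-ratios scaling and 4 to 8 on leaving out a library. TE of DEX against LPS (main 0) gave 1 with log2(CPM + 2) and 0 to 2 on leaving out a library. TE of LPS + DEX against basal (main 4) gave 12 with median-of-ratios scaling and 0 to 4 on leaving out a library. The causes of these shifts were not tested. A check of replicate numbers showed no clear pairing of samples, and with 2 replicates per group it cannot exclude pairing. Same-numbered libraries of one assay deviated from their group means with correlations of -0.183 to 0.108. Between mRNA and RPF of the same treatment, the differences between replicates correlated at -0.0157 to 0.0143. With the replicate block 13 members passed in mRNA of LPS + DEX against basal. Depth limited the LPS footprints most, with 24 reads for Ndufb2 in 1 library. With 2 replicates per group, p-values measure the spread between few cultures.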
